A study of Homo sapiens with 6 samples.

Results

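The heat shock protein families are chaperones found mostly in the cytosol and nucleus, and they are described here in glioblastoma cells given ursodeoxycholic acid (UDCA). The gene models were taken by symbol: protein-coding genes named HSPA, HSPB, HSPH, HSP90A, DNAJA, DNAJB, DNAJC or BAG with a number, and the heat shock factors HSF1 and HSF2. HSPA5, HSPA9, DNAJB9, DNAJC3 and DNAJC10 were set aside. Of 75 gene models that fit in the GENCODE 29 annotation, 71 are among the 33890 genes of the deposited table, under 70 symbols because HSPA14 has 2 models. DNAJB8, DNAJC5B, DNAJC25-GNG10 and HSPB2-C11orf52 were not analysed here. By symbol the 71 are 11 HSP70, 3 HSP110, 2 HSP90, 8 small HSP, 4 DNAJA, 10 DNAJB, 25 DNAJC, 6 BAG and 2 HSF gene models.

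Messenger RNA was sequenced from LN229, an established human line grown from a grade IV glioma. Cells kept with 800 µM UDCA for 48 h gave 3 libraries, and cells without it, here called control, gave 3 libraries. All 6 came from cells in DMEM with 10% fetal bovine serum, and the labels name no vehicle for the control cells. UDCA is a bile acid given to patients with cholestasis, and the series title places it in a study of the compound against glioblastoma. Separate cultures are not stated for the libraries of either group, so a p-value reflects the spread among these libraries alone, and that spread may be technical.

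HSP70 proteins bind short exposed stretches of unfolded chains and let go of them in a cycle of ATP hydrolysis. J-domain proteins (the DNAJ families) bring clients and start the hydrolysis, and HSP110 and many BAG proteins help to exchange the nucleotide. HSP90 acts later on kinases, steroid receptors and other near-folded clients, and small HSPs hold unfolding proteins without ATP. HSF1 switches many of these genes on in cells with misfolded protein, through heat shock elements in their promoters. Tumour cells often hold much HSP70, HSP90 and HSPB1.

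Values are FPKM, reads scaled by the merged length of all annotated exons of a gene and by the library's total. Levels of different genes, their sums and their shares thus depend on that length. How reads shared between genes were counted is not known. Reads recovered from the values came to 15988951 to 17045218 in the UDCA libraries and 16639832 to 17743022 in the control libraries. The mitochondrially encoded genes held 0.0263% to 0.0271% of the reads in UDCA libraries and 3.13% to 3.16% in control libraries. Of 7 glial and glioma markers, GFAP was under 1 FPKM in all libraries, OLIG2 was not called and the other 5 were lower with UDCA (SOX2 had 2.58 FPKM in UDCA cells, against 77.0 FPKM in control cells). The summed level of the 7 was 155 to 158 FPKM in UDCA libraries and 742 to 759 FPKM in control libraries. Of 3 neuronal markers, SYT1 was higher, SNAP25 lower and RBFOX3 under 1 FPKM, and their summed level was 17.7 to 20.4 FPKM in UDCA libraries and 10.5 to 11.6 FPKM in control libraries. The 3 immune, 3 endothelial and 2 epithelial markers were all under 1 FPKM in each library. The part of these differences in the results below was not tested. FPKM are shares of a library, and in bulk RNA fewer cells of a type and less RNA per cell cannot be told apart.

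With UDCA the HSP70, HSP110 and DNAJA families and both heat shock factors were mostly higher, the HSP90 pair split in FPKM as deposited (HSP90AB1 was higher under quantile normalization), and the BAG and DNAJC families held more mixed changes. Of the 71 members, 59 had at least 1 FPKM in at least 3 libraries and were tested. In limma on log2(FPKM + 1), with p-values adjusted over the 14380 genes tested in all, 32 rose, 18 fell and 9 did not pass at an adjusted p under 0.05. The same test called 80.8% of all tested genes, 45.1% higher and 35.7% lower, against 54.2% higher and 30.5% lower of the tested members, so a call alone sets no member apart. A called change that reached 2-fold by log2(FPKM + 1) was found higher in 16 members and lower in DNAJC9 alone, against 12.3% and 12.0% of all tested genes. The 3 UDCA libraries lay wholly above or below the 3 control libraries in 53 tested members (89.8%), against 82.8% of all tested genes. The median log2 change was 0.36 over the tested members and 0.10 over all tested genes. HSPA1L and DNAJC17 reached the minimum of 1 FPKM in the libraries of 1 group only, so they had to differ. Both are kept in these counts and in those below.

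**Figure D1:**
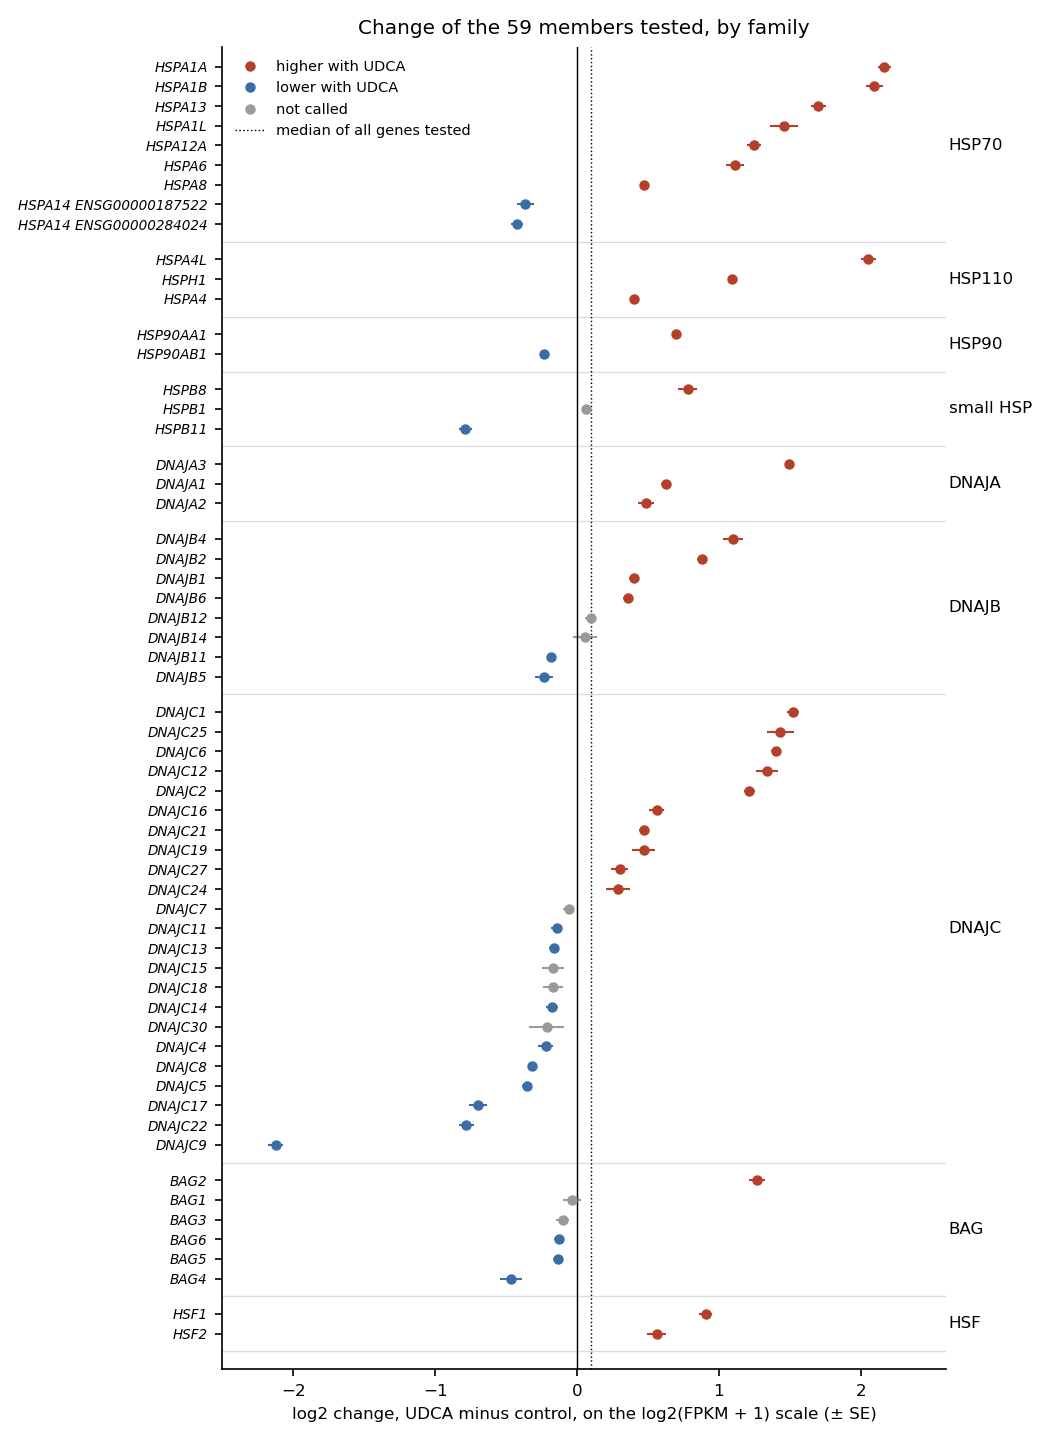
Log2 change of UDCA over control, from log2(FPKM + 1) values, with its SE for the 59 members tested, grouped by family; colour gives the call at an adjusted p under 0.05, and the dotted line is the median of all tested genes. HSPA1A, HSPA1B and HSPA4L lie above 2, DNAJC9 lies at -2.13, and the HSP90 pair stands on both sides of 0 (HSP90AB1 was higher under quantile normalization).

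**Figure D2:**
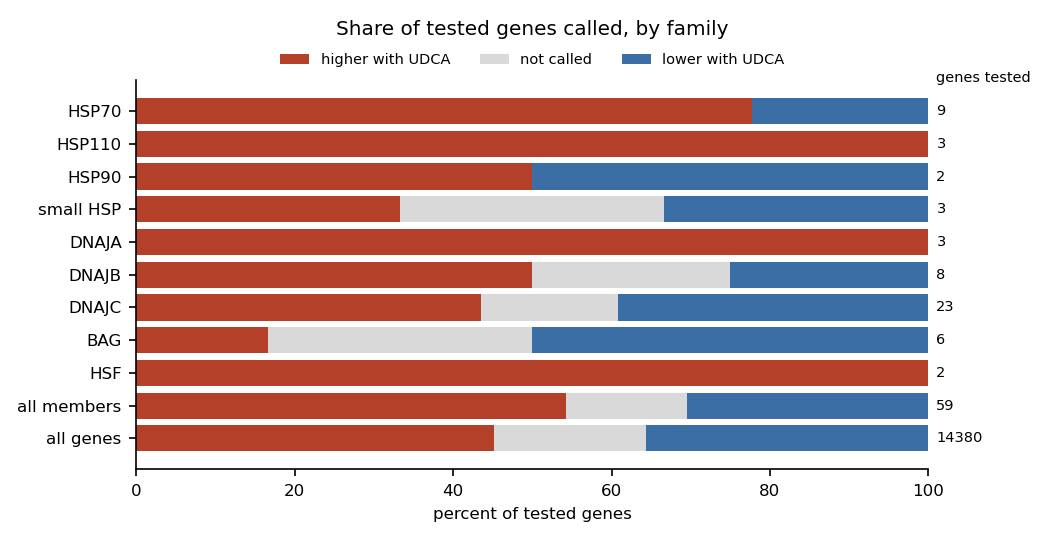
Percent of tested genes called higher, not called and called lower with UDCA, by family, with the number of tested genes at the right. All tested HSP110, DNAJA and HSF members were higher, against 45.1% of all tested genes, and the counts per family are small. Of the HSP90 pair, HSP90AB1 was higher instead of lower under quantile normalization.

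The upstream sequences of 7 members are shown because these are well-known heat shock protein genes with heat shock element letters before a start, and because their levels moved by different amounts (HSP90AB1 was lower in FPKM as deposited and higher under quantile normalization). They come from the RefSeq promoter table (GRCh38.p14), read 5′ to 3′ on the gene's strand, with positions counted back from the annotated start at -1. Capitals mark heat shock element letters, that is GAANNTTC or TTCNNGAA, where N is any base. Stretches stop at the first exon that GENCODE annotates, and those of HSPA8 and HSP90AA1, whose elements lie within annotated exons, are kept to 30 bases.
HSPA1A (chr6:31815293-31815463, plus strand): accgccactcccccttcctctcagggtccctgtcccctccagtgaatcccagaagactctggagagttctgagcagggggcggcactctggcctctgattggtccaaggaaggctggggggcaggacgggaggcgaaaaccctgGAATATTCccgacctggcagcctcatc
HSPA1B (chr6:31827488-31827734, plus strand): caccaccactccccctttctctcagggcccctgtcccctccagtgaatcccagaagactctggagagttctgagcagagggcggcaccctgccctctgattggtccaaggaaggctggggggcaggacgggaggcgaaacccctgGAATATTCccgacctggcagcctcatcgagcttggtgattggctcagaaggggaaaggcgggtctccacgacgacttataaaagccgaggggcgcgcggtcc
HSPA6 (chr1:161524290-161524539, plus strand): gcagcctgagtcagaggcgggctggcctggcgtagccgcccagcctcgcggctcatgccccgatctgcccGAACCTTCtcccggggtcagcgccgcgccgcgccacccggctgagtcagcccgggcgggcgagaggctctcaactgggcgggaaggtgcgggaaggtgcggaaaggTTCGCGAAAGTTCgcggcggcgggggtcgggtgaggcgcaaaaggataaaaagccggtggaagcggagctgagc
HSPA8 (chr11:123062346-123062375, minus strand): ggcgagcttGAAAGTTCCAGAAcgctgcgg
HSP90AA1 (chr14:102087105-102087134, minus strand): tcTTCCGGAAGGTTCgggaggcTTCTGGAA
HSP90AB1 (chr6:44247693-44247865, plus strand): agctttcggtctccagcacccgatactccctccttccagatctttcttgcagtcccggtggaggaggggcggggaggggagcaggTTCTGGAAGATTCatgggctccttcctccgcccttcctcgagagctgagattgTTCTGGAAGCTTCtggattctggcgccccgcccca
DNAJB1 (chr19:14518421-14518647, minus strand): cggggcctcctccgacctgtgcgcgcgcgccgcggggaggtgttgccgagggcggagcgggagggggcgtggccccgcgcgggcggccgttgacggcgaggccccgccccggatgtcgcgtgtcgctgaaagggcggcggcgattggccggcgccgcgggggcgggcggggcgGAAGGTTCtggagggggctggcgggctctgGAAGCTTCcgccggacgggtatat

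HSPA1A and HSPA1B carry the same 8 letters at -106 and -105, and 93.6% of the aligned columns of their 250-base windows are identical. HSPA1L is read from the opposite strand beside HSPA1A, and its window covers nearly the same bases, so both windows hold that 1 element. HSPA8 has 2 runs of elements, which start at -230 and -55, and the first is shown. HSP90AA1 has 3 elements between -88 and -61, of which the first pair overlap in a 3-unit run. The HSP90AB1 stretch lies before the innermost of its 3 annotated starts, and the windows of its other starts hold no element.

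A 2-unit element was found in 20 of 82 promoter windows of the members (24.4%), against 11.6% of the 34796 windows in the table. The 3-unit form, which adds NNGAA or NNTTC to it and so holds 2 overlapping 2-unit forms, was found in 5 of the 82 (6.1%), against 0.443% of all. Those 5 windows belong to HSPA6, HSPA8, HSP90AA1, HSP90AB1 and DNAJB6. By gene, 13 of 29 members that rose had a 2-unit element in a window, against 1 of 13 that fell. The 1 that fell was HSP90AB1, which was higher under quantile normalization. Of members not called 2 of 9 had one, and of those not tested 4 of 10. The 3-unit form was in 4 of 29 that rose and 1 of 13 that fell. These counts were not tested, and no share by gene was taken over all genes. HSPA1A and HSPA1L share 1 element, and the HSPA1B window is 93.6% identical to that of HSPA1A, yet each counts separately among those that rose. Some genes have 2 or 3 windows and so more chances of a match. The CCAAT box (CCAAT or ATTGG) was in 34.1% of the members' windows and 32.0% of all, and the ATF4 element (TGATGNAA or TTNCATCA) in 2.44% and 3.16%. By gene, the CCAAT box was in 11 of 29 members that rose and 5 of 13 that fell, which was not tested. Both strands of the 250 bases were searched, the 2-unit form was added after the data were seen, and the table holds 61 of the 70 symbols; BAG4, DNAJC1, DNAJC22, DNAJC24, HSF1, HSPA12B, HSPA14, HSPB11 and HSPB2 had no entry. A match describes letters and not a bound site.

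HSPA1A and HSPA1B, the main stress-inducible HSP70 genes, rose most within their family on the log2 scale. HSPA1A (chromosome 6, 31815464 to 31817946, plus strand, GRCh38) had 47.0, 47.0 and 51.2 FPKM in the UDCA libraries, against 10.3, 10.0 and 9.65 FPKM in the control libraries. It averaged 48.4 ± 2.45 FPKM in UDCA cells and 10.0 ± 0.344 FPKM in control cells (SD, n = 3 each), 4.84-fold higher (log2 change 2.17 ± 0.043 SE, limma, adjusted p = 2.12e-08). Its neighbour HSPA1B (chromosome 6, 31827735 to 31830255, plus strand) had 34.1, 36.3 and 36.3 FPKM in the UDCA libraries, against 8.27, 7.56 and 6.89 FPKM in the control libraries, 4.70-fold higher (log2 change 2.10 ± 0.062 SE, limma, adjusted p = 1.29e-07). The groups stood far apart for both, but 71.3% of the 50-base words of HSPA1A transcripts occur in HSPA1B, so how reads divide between the copies is uncertain. Their sum was 81.1, 83.3 and 87.6 in the UDCA libraries, against 18.6, 17.6 and 16.5 in the control libraries (FPKM). It depends less on that division, but how reads that match both copies were counted is not known. Of the exon bases of HSPA1B, 36.5% also lie in AL671762.1 on the same strand.

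HSPA1L, an HSP70 best known from testis, had 3.59, 2.79 and 3.45 FPKM in the UDCA libraries, against 0.425, 0.571 and 0.665 FPKM in the control libraries, on 416 reads in all UDCA libraries and 73 in all control libraries (log2 change 1.46 ± 0.10 SE, limma, adjusted p = 9.72e-06). HSPA1L reached the minimum of 1 FPKM in the UDCA libraries only, so it had to differ and its p-value adds nothing. HSPA6 (chromosome 1, 161524540 to 161526910, plus strand), an HSP70 known for strict induction and absent from mice, had 9.42, 10.00 and 10.1 FPKM in the UDCA libraries, against 3.73, 3.87 and 4.45 FPKM in the control libraries, and rose 2.45-fold (limma, adjusted p = 3.23e-06). Of its 50-base words 45.5% occur in its pseudogene neighbour HSPA7, which averaged 0.217 FPKM in UDCA cells, against 0.471 FPKM in control cells. In control libraries all 4 stood well under the constitutive gene HSPA8.

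HSPA8 (chromosome 11, 123057489 to 123063230, minus strand), the constitutive HSC70 that also strips clathrin from vesicles, had 319.6, 315 and 317 FPKM in the UDCA libraries, against 229, 224 and 232 FPKM in the control libraries. All UDCA libraries were above all control libraries, with means of 317 ± 2.26 FPKM in UDCA cells and 228 ± 3.63 FPKM in control cells (SD, n = 3 each), 1.39-fold higher (log2 change 0.47 ± 0.019 SE, limma, adjusted p = 5.49e-07). HSPA13 (chromosome 21, 14371115 to 14383484, minus strand), an HSP70 of the endoplasmic reticulum without a substrate-binding domain, had 100.3, 98.7 and 89.4 FPKM in the UDCA libraries, against 29.7, 29.5 and 27.5 FPKM in the control libraries, and rose 3.33-fold (log2 change 1.70 ± 0.051 SE, limma, adjusted p = 1.44e-07). HSPA12A, a distant HSP70 of brain, rose 3.10-fold, with 5.78 FPKM in UDCA cells, against 1.86 FPKM in control cells (limma, adjusted p = 5.55e-07).

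The 2 gene models named HSPA14, which overlap on chromosome 10 and were counted as HSP70 by symbol, were the members of the family that fell. HSPA14 is known as an HSP70 of the ribosome, but whether both models encode that protein was not checked. Model ENSG00000187522 had 3.998, 3.75 and 3.39 FPKM in the UDCA libraries, against 5.02, 4.90 and 5.27 FPKM in the control libraries (limma, adjusted p = 0.00107). Model ENSG00000284024 had 4.67, 4.73 and 4.46 FPKM in the UDCA libraries, against 6.71, 6.53 and 6.35 FPKM in the control libraries (limma, adjusted p = 6.55e-05). The groups did not overlap in either model, as was the case in 82.8% of all tested genes. HSPA2 and HSPA12B were under the minimum and not tested: HSPA2 had 9 reads in all UDCA libraries and 48 in all control libraries, and HSPA12B had 12 and 85.

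Summed over the 11 gene models counted as HSP70 by symbol, the level was 1.79 times as high with UDCA. It was 529, 524 and 522 in the UDCA libraries, against 295, 289.9 and 295 in the control libraries (FPKM). HSPA8 made up 60.5, 60.1 and 60.8 in the UDCA libraries, against 77.4, 77.4 and 78.6 in the control libraries (percent of the sum). HSPA1A and HSPA1B together made up 15.3, 15.9 and 16.8 in the UDCA libraries, against 6.30, 6.06 and 5.61 in the control libraries (percent of the sum). HSPA8 stayed the most abundant of these 11 in every library, with a smaller share in the UDCA libraries. HSPA5 and HSPA9, set aside by the rule, are not in the sum. HSPA5 alone averaged 1741 FPKM in UDCA cells and 373 FPKM in control cells, so these shares are not those of all HSP70 genes.

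**Figure D3:**
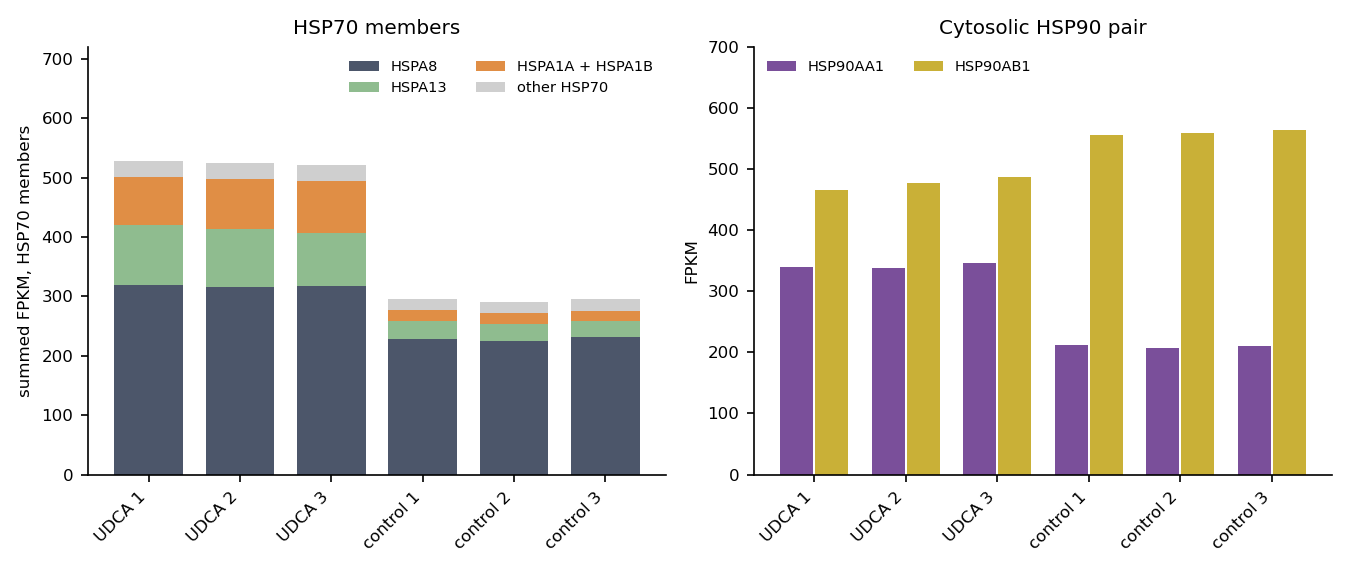
Left, summed FPKM of the HSP70 members in each library, split into HSPA8, HSPA13, HSPA1A plus HSPA1B and the rest; right, FPKM of HSP90AA1 and HSP90AB1 in each library. The HSP70 sum lay at 522 to 529 in UDCA libraries and 290 to 295 in control libraries. HSP90AA1 was higher in all 3 UDCA libraries, and HSP90AB1 lower in FPKM as deposited but higher under quantile normalization.

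All 3 HSP110 genes, which act as nucleotide exchange factors for HSP70, rose, against 45.1% of all tested genes. HSPA4L (chromosome 4, 127781821 to 127840733, plus strand) had 13.1, 13.5 and 12.3 FPKM in the UDCA libraries, against 2.27, 2.56 and 2.30 FPKM in the control libraries, 5.47-fold higher (log2 change 2.05 ± 0.053 SE, limma, adjusted p = 7.04e-08). HSPH1 (chromosome 13, 31134974 to 31162388, minus strand), the heat-inducible HSP105, had 34.8, 34.9 and 33.9 FPKM in the UDCA libraries, against 15.3, 15.8 and 15.9 FPKM in the control libraries, 2.21-fold higher (log2 change 1.09 ± 0.026 SE, limma, adjusted p = 4.89e-08). HSPA4 (chromosome 5, 133051962 to 133106449, plus strand), the most abundant of them, had 66.1, 64.7 and 66.5 FPKM in the UDCA libraries, against 49.7, 49.5 and 49.4 FPKM in the control libraries, 1.33-fold higher (limma, adjusted p = 1.59e-06). No UDCA library overlapped a control library in any of them, as was the case in 82.8% of all tested genes. Their summed level was 1.68 times as high with UDCA, close to the 1.79 of the HSP70 sum.

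The cytosolic HSP90 pair moved in opposite directions in FPKM as deposited. HSP90AA1 (chromosome 14, 102080738 to 102139699, minus strand), the stress-inducible HSP90 alpha, had 341, 338 and 346 FPKM in the UDCA libraries, against 212, 208 and 211 FPKM in the control libraries. Its means were 342 ± 4.12 FPKM in UDCA cells and 210.2 ± 1.95 FPKM in control cells (SD, n = 3 each), 1.63-fold higher (log2 change 0.70 ± 0.018 SE, limma, adjusted p = 6.76e-08). HSP90AB1 (chromosome 6, 44246166 to 44253888, plus strand), the constitutive HSP90 beta and the member with the highest FPKM in all libraries, had 465, 477 and 488 FPKM in the UDCA libraries, against 557, 559 and 564 FPKM in the control libraries. It was 1.17-fold lower (log2 change -0.23 ± 0.022 SE, limma, adjusted p = 5.14e-05), but higher by 0.31 under quantile normalization (limma, adjusted p = 0.00264), so the direction for HSP90AB1 depends on the scaling.

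The ratio of HSP90AB1 to HSP90AA1, which multiplying a whole library by a factor does not change, was 1.37, 1.41 and 1.41 in the UDCA libraries, against 2.63, 2.69 and 2.67 in the control libraries. In FPKM the 2 genes were thus nearer to each other in all UDCA libraries than in any control library. In reads not scaled by length, HSP90AA1 had 89640 and HSP90AB1 had 71061 in all UDCA libraries. In all control libraries they had 56893 and 86081. Their sum was 806, 815 and 834 in the UDCA libraries, against 768, 767 and 775 in the control libraries (FPKM), 1.06 times as high. Processed pseudogenes share sequence with both, with HSP90AB3P holding 13.8% of the 50-base words of HSP90AB1 and HSP90AA2P 7.97% of those of HSP90AA1.

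**Figure D4:**
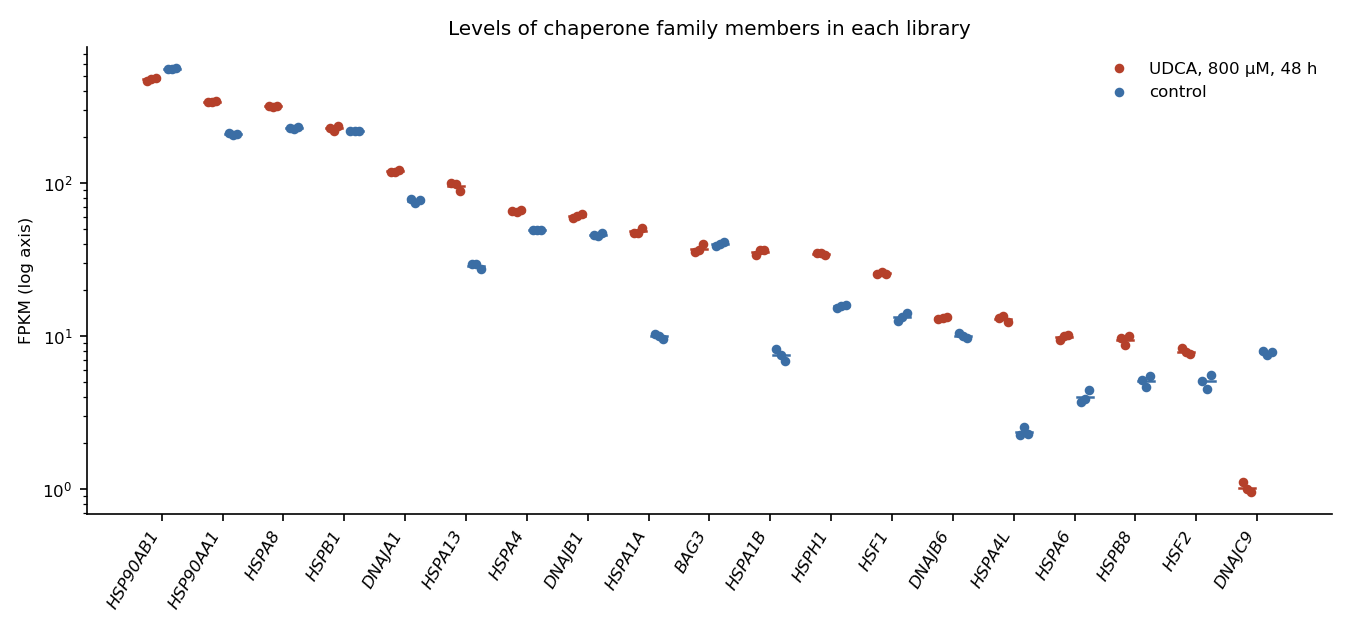
FPKM of 19 members in each library on a log axis, UDCA left and control right for each gene; dots are libraries and the short line is the mean. The groups do not overlap except for HSPB1 and BAG3, and HSP90AB1 and DNAJC9 are the called genes with UDCA below control (HSP90AB1 was above it under quantile normalization).

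Of 8 small HSP genes, 3 were tested and each gave a different result. HSPB1 (chromosome 7, 76302544 to 76304295, plus strand), which encodes HSP27 and is abundant in astrocytic tumours, had 229, 219 and 238 FPKM in the UDCA libraries, against 219, 220.0 and 218 FPKM in the control libraries. The groups overlapped and it was not called (log2 change 0.06 ± 0.031 SE, limma, adjusted p = 0.1003). HSPB8 (chromosome 12, 119178642 to 119221131, plus strand), the partner of BAG3 in selective autophagy, had 9.71, 8.76 and 9.99 FPKM in the UDCA libraries, against 5.17, 4.65 and 5.50 FPKM in the control libraries, 1.86-fold higher (log2 change 0.78 ± 0.069 SE, limma, adjusted p = 3.5e-05). HSPB11, which despite its symbol encodes the intraflagellar transport protein IFT25, had 6.42, 6.20 and 6.13 FPKM in the UDCA libraries, against 11.6, 12.1 and 10.9 FPKM in the control libraries, 1.84-fold lower (limma, adjusted p = 3.43e-06). HSPB2, HSPB3, HSPB6, HSPB7 and HSPB9 stayed under 1 FPKM in every library. HSPB3 had 12 reads in all UDCA libraries and 0 in all control libraries, and HSPB6 had 7 and 42.

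The 3 tested DNAJA genes all rose, against 45.1% of all tested genes. DNAJA1 (chromosome 9, 33025211 to 33039907, plus strand), the most abundant of the DNAJ members in both groups, had 118, 118 and 122 FPKM in the UDCA libraries, against 78.9, 73.7 and 78.2 FPKM in the control libraries, 1.55-fold higher (log2 change 0.63 ± 0.031 SE, limma, adjusted p = 1.69e-06). DNAJA2 rose 1.42-fold, with 24.1 FPKM in UDCA cells, against 16.9 FPKM in control cells (limma, adjusted p = 0.000143). DNAJA3 (chromosome 16, 4425805 to 4456775, plus strand), which works in the mitochondrial matrix, had 31.8, 31.5 and 32.0 FPKM in the UDCA libraries, against 10.8, 10.7 and 10.4 FPKM in the control libraries, 2.99-fold higher (log2 change 1.49 ± 0.026 SE, limma, adjusted p = 1.27e-08). The gap between groups for DNAJA3 was many times the spread within them. DNAJA4 stayed under the minimum and was not tested.

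Among 8 tested DNAJB genes 4 rose, 2 fell and 2 were not called. That is 50% higher and 25% lower, against 45.1% and 35.7% of all tested genes. DNAJB1 (chromosome 19, 14514770 to 14529770, minus strand), the classic HSP40 and a heat-inducible partner of HSP70, had 59.3, 60.6 and 63.0 FPKM in the UDCA libraries, against 46.1, 45.04 and 47.0 FPKM in the control libraries, 1.32-fold higher (log2 change 0.40 ± 0.030 SE, limma, adjusted p = 1.42e-05). DNAJB4 had 13.5, 11.1 and 11.6 FPKM in the UDCA libraries, against 5.23, 5.09 and 4.95 FPKM in the control libraries, 2.37-fold higher (limma, adjusted p = 6.38e-06). DNAJB2, which hands ubiquitylated clients to the proteasome in neurons, rose 1.89-fold, with 29.2 FPKM in UDCA cells, against 15.4 FPKM in control cells (limma, adjusted p = 4.85e-07). DNAJB6, a suppressor of polyglutamine aggregation, had 13.04, 13.2 and 13.4 FPKM in the UDCA libraries, against 10.5, 9.96 and 9.80 FPKM in the control libraries, 1.31-fold higher (limma, adjusted p = 6.65e-05). The rise of DNAJB1 and DNAJB6 was thus smaller than that of DNAJB4 and DNAJB2. DNAJB11, a J-domain protein of the endoplasmic reticulum lumen, fell 1.14-fold and DNAJB5 fell 1.24-fold. DNAJB12 and DNAJB14, both in the membrane of the endoplasmic reticulum, had 11.1 against 10.3 FPKM and 4.99 against 4.73 FPKM (UDCA against control) and were not called. DNAJB7 and DNAJB13 were not tested.

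DNAJC proteins share little beyond the J domain, and of 23 tested 10 rose, 9 fell and 4 were not called. These shares, 43.5% higher and 39.1% lower, were near the 45.1% and 35.7% of all tested genes. DNAJC1 (chromosome 10, 21756537 to 22003769, minus strand), a membrane J-domain protein of the endoplasmic reticulum, had 39.8, 39.3 and 36.9 FPKM in the UDCA libraries, against 12.5, 13.4 and 12.5 FPKM in the control libraries, 3.02-fold higher (log2 change 1.52 ± 0.041 SE, limma, adjusted p = 8e-08). DNAJC6 (chromosome 1, 65248219 to 65415869, plus strand), the auxilin that recruits HSPA8 to clathrin coats, averaged 19.8 ± 0.301 FPKM in UDCA cells and 6.88 ± 0.242 FPKM in control cells (SD, n = 3 each), 2.88-fold higher (log2 change 1.40 ± 0.034 SE, limma, adjusted p = 5.19e-08). DNAJC2 (chromosome 7, 103312474 to 103344873, minus strand), which pairs with HSPA14 on the ribosome, had 15.2, 15.7 and 15.7 FPKM in the UDCA libraries, against 6.44, 6.00 and 5.96 FPKM in the control libraries, 2.53-fold higher (limma, adjusted p = 1.81e-07). DNAJC2 and the 2 models named HSPA14 thus moved in opposite directions, and whether both models encode its partner was not checked. DNAJC12, a co-chaperone of the aromatic amino acid hydroxylases, rose 3.04-fold, with 9.08 FPKM in UDCA cells, against 2.98 FPKM in control cells (limma, adjusted p = 3.64e-06). DNAJC25 rose 3.23-fold, with 10.6 FPKM in UDCA cells, against 3.27 FPKM in control cells (limma, adjusted p = 8.24e-06), and 13.8% of its exon bases lie in the read-through gene DNAJC25-GNG10.

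DNAJC9 (chromosome 10, 73183362 to 73248862, minus strand), a J-domain co-chaperone of histones H3 and H4, had the largest fall of the tested members. It had 1.11, 1.01 and 0.953 FPKM in the UDCA libraries, against 8.01, 7.55 and 7.91 FPKM in the control libraries, on 202 reads in all UDCA libraries and 1596 in all control libraries. Its means were 1.02 ± 0.0778 FPKM in UDCA cells and 7.82 ± 0.238 FPKM in control cells (SD, n = 3 each), 7.65-fold lower (log2 change -2.13 ± 0.053 SE, limma, adjusted p = 5.82e-08). Of its exon bases 29.1% lie in exons of other genes, FAM149B1 on the opposite strand among them, which averaged 4.66 FPKM in UDCA cells, against 3.07 FPKM in control cells and so moved the other way. The other 8 that fell lay between -0.78 and -0.14 on the log2 scale. They include DNAJC22 at 4.13 against 7.81 FPKM and DNAJC17, a protein of the spliceosome, at 0.706 against 1.76 FPKM (UDCA against control), with DNAJC5, the cysteine string protein of synaptic vesicles, at 28.9 against 37.2 FPKM and DNAJC8, also of the spliceosome, at 38.1 against 47.6 FPKM.

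The 5 other DNAJC genes that rose did so by 0.29 to 0.56 on the log2 scale. DNAJC24, a subunit of diphthamide synthesis, was the weakest, with 4.54, 4.25 and 3.61 FPKM in the UDCA libraries, against 2.96, 3.10 and 3.53 FPKM in the control libraries (log2 change 0.29 ± 0.086 SE, limma, adjusted p = 0.0177). Its groups were just apart, and the call did not hold under 6 of the 13 alternatives. DNAJC7, DNAJC15, DNAJC18 and DNAJC30 had log2 changes of -0.06, -0.17, -0.17 and -0.21 and were not called. DNAJC28 and DNAJC5G were not tested, with 18 and 0 reads in all UDCA libraries, against 85 and 1 in all control libraries.

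By compartment, the members of the endoplasmic reticulum and of mitochondria held both directions. Each set of 5 had 40% higher and 20% lower, against 45.1% and 35.7% of all tested genes. Of the 5 members placed in the endoplasmic reticulum, HSPA13 and DNAJC1 rose, DNAJB11 fell, and DNAJB12 and DNAJB14 were not called. Of the 5 placed in mitochondria, DNAJA3 and DNAJC19, part of the import motor, rose, and DNAJC11 fell, while DNAJC15 and DNAJC30 were not called. The medians were 0.10 and -0.14 on the log2 scale, against 0.36 over the tested members. They leave out the 5 relatives set aside by the rule, among them HSPA5 of the endoplasmic reticulum and HSPA9 of mitochondria. All 5 relatives rose, against 45.1% of all tested genes. Their log2 changes were 2.22 for HSPA5, 3.37 for DNAJB9, 1.05 for DNAJC10, 0.55 for DNAJC3 and 1.07 for HSPA9. The medians thus do not describe all chaperones of either compartment. The fall of the mitochondrially encoded reads, given above, stands beside these values, and its part in them was not tested.

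Of the 6 BAG genes, BAG2 rose, BAG4, BAG5 and BAG6 fell, and BAG1 and BAG3 were not called. That is 16.7% higher and 50% lower, against 45.1% and 35.7% of all tested genes. BAG2 (chromosome 6, 57172326 to 57189833, plus strand), an inhibitor of the ubiquitin ligase CHIP, had 8.88, 8.71 and 8.09 FPKM in the UDCA libraries, against 2.79, 3.15 and 2.97 FPKM in the control libraries, 2.88-fold higher (log2 change 1.27 ± 0.054 SE, limma, adjusted p = 8.06e-07). Of its exon bases 44.2% lie in exons of other genes, mostly RAB23 on the opposite strand, which itself had 2.13 FPKM in UDCA cells, against 3.64 FPKM in control cells. BAG3 (chromosome 10, 119651370 to 119677819, plus strand), a heat shock-inducible co-chaperone of selective autophagy, had 35.7, 36.6 and 39.7 FPKM in the UDCA libraries, against 38.8, 40.1 and 41.4 FPKM in the control libraries, and the groups overlapped. Its log2 change was -0.10 ± 0.045 SE (limma, adjusted p = 0.0729), and 5 of the 13 alternatives called it lower. The falls of BAG4, BAG5 and BAG6, which guards newly made membrane proteins, were 1.51-fold, 1.11-fold and 1.10-fold. BAG3 is known as a target of HSF1, as are DNAJB1, HSPH1 and HSPA1A, which rose.

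Both heat shock factor genes rose, against 45.1% of all tested genes. HSF1, the main activator of the heat shock response, had 25.5, 26.3 and 25.6 FPKM in the UDCA libraries, against 12.5, 13.3 and 14.2 FPKM in the control libraries, 1.94-fold higher (log2 change 0.91 ± 0.045 SE, limma, adjusted p = 1.77e-06). HSF2 (chromosome 6, 122399546 to 122433119, plus strand), which can pair with HSF1 on the same elements, had 8.31, 7.88 and 7.63 FPKM in the UDCA libraries, against 5.12, 4.54 and 5.55 FPKM in the control libraries, 1.57-fold higher (log2 change 0.56 ± 0.068 SE, limma, adjusted p = 0.000203). No UDCA library overlapped a control library in either gene, as was the case in 82.8% of all tested genes. These are transcript levels, and HSF1 is activated mostly at the protein level, which was not measured.

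Over all 71 members the summed level was 2411, 2412 and 2452 in the UDCA libraries, against 1942, 1929 and 1944 in the control libraries (FPKM), 1.25 times as high with UDCA. HSP90AB1, HSP90AA1, HSPA8 and HSPB1 together held 56.2, 55.9 and 56.7 in the UDCA libraries, against 62.6, 62.8 and 63.0 in the control libraries (percent of that sum). Across the 59 tested members, which share the same libraries, Pearson's r between control level and log2 change was -0.12 and Spearman's rho -0.09. Of 34 tested members that share under 5% of their 50-base words with other genes, 20 rose, 8 fell and 6 were not called. Of the 25 that share more, 12 rose, 10 fell and 3 were not called. The first set thus had 58.8% higher and 23.5% lower, and the second 48% and 40%. Over all tested genes the shares were 45.1% and 35.7%.

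The co-chaperones and relatives outside the families were read from 7 lists that hold 58 genes of the deposited table, of which 56 were tested; 33 rose (58.9%), 17 fell (30.4%) and 6 were not called, against 45.1% higher and 35.7% lower of all tested genes. Of 15 tested HSP90 co-chaperones 11 rose and 4 fell, and their median log2 change was 0.25. CHORDC1, a zinc-binding partner of HSP90, had 8.82, 8.62 and 7.98 FPKM in the UDCA libraries, against 2.19, 2.13 and 2.03 FPKM in the control libraries, 3.997-fold higher (limma, adjusted p = 1.96e-07). FKBP4, an immunophilin of steroid receptor complexes, had 45.05, 45.1 and 46.8 FPKM in the UDCA libraries, against 15.8, 16.8 and 15.0 FPKM in the control libraries, 2.88-fold higher (limma, adjusted p = 1.09e-07). The groups were apart for both, as for 82.8% of all tested genes. The 4 that fell were PPP5C, STUB1, PTGES3 and UNC45A, with STUB1, the ubiquitin ligase CHIP, at 21.3 against 27.7 FPKM (UDCA against control).

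All 5 relatives set aside by the rule rose, against 45.1% of all tested genes. HSPA5, the BiP chaperone of the endoplasmic reticulum, had 1715, 1724 and 1785 FPKM in the UDCA libraries, against 371, 373 and 376 FPKM in the control libraries. DNAJB9 had 54.3, 54.7 and 51.2 FPKM in the UDCA libraries, against 4.38, 4.32 and 4.13 FPKM in the control libraries. Their folds, 4.67 and 12.5, stand beside 4.84 for HSPA1A, the largest rise by log2 change among the tested members. By fold HSPA1L (5.92) and HSPA4L (5.47) stood above HSPA1A, HSPA1L having reached 1 FPKM in UDCA libraries only. HSPA9, the mitochondrial HSP70, rose 2.12-fold, DNAJC10 2.21-fold and DNAJC3 1.496-fold.

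Of 7 tested relatives under other symbols, SEC63, HYOU1 and TRAP1 rose, HSCB was not called and HSP90B1, CRYAB and GAK fell (HSP90B1 was higher by 0.064 on the log2 scale under quantile normalization, and not called). TRAP1, the mitochondrial HSP90, averaged 15.4 FPKM in UDCA cells, against 9.82 FPKM in control cells, and HSP90B1, the HSP90 of the endoplasmic reticulum, averaged 355 FPKM in UDCA cells, against 379.6 FPKM in control cells. CRYAB, the small HSP alpha-B crystallin, had 0.289, 0.174 and 0.116 FPKM in the UDCA libraries, against 1.98, 1.99 and 1.43 FPKM in the control libraries, on 29 reads in all UDCA libraries and 281 in all control libraries. It reached the minimum of 1 FPKM in the control libraries only, so it had to differ. GAK, the auxilin found in most tissues, fell 1.83-fold, whereas its relative DNAJC6 rose.

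Among 16 chaperonin and prefoldin genes 7 rose (43.75%), 8 fell (50%) and CCT2 was not called. The shares over all tested genes were 45.1% higher and 35.7% lower. CCT2 was called lower under median-ratio scaling and higher under quantile normalization. PFDN2, a prefoldin subunit, had 337, 350.1 and 356 FPKM in the UDCA libraries, against 115, 121 and 107 FPKM in the control libraries, 3.04-fold higher (limma, adjusted p = 9.33e-08), and PFDN4 rose 1.79-fold. Of the 8 TRiC chaperonin genes, CCT4 and TCP1 rose and CCT3, CCT5, CCT6A, CCT7 and CCT8 fell, but the call of TCP1 was lost under median-ratio scaling and that of CCT3 under quantile normalization. HSPD1, the mitochondrial HSP60, had 206, 208 and 209 FPKM in the UDCA libraries, against 122, 123 and 122 FPKM in the control libraries, while its partner HSPE1 had 1.71, 2.11 and 2.12 FPKM in the UDCA libraries, against 2.71, 2.35 and 2.68 FPKM in the control libraries. Some exon bases of HSPE1 also belong to the read-through gene HSPE1-MOB4, so its level is uncertain.

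Of 7 other genes that heat shock is known to induce, DEDD2, ZFAND2A, CACYBP and IER5 rose, SERPINH1 fell, and UBB and MRPL18 were not called (both were called lower under median-ratio scaling). DEDD2 averaged 16.6 FPKM in UDCA cells, against 5.80 FPKM in control cells, and ZFAND2A 15.8 FPKM in UDCA cells, against 5.62 FPKM in control cells. SERPINH1, the collagen chaperone HSP47, had 66.0, 67.2 and 71.7 FPKM in the UDCA libraries, against 167, 171 and 170.2 FPKM in the control libraries, 2.48-fold lower (limma, adjusted p = 6.35e-08). Of these 7 genes 57.1% were higher and 14.3% lower, against 45.1% and 35.7% of all tested genes. What moved them was not tested.

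Of the 4 HSP70 exchange factors outside BAG, SIL1 and GRPEL2 rose, and HSPBP1 and GRPEL1 were not called, with signs that depend on the scaling. HSF4 rose 1.86-fold, with 5.32 FPKM in UDCA cells, against 2.87 FPKM in control cells. HSBP1, a small protein that binds HSF1, had 16.1, 16.3 and 16.2 FPKM in the UDCA libraries, against 27.9, 28.7 and 25.8 FPKM in the control libraries, 1.69-fold lower (limma, adjusted p = 3.16e-06). HSF5 stayed under the minimum.

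**Figure D5:**
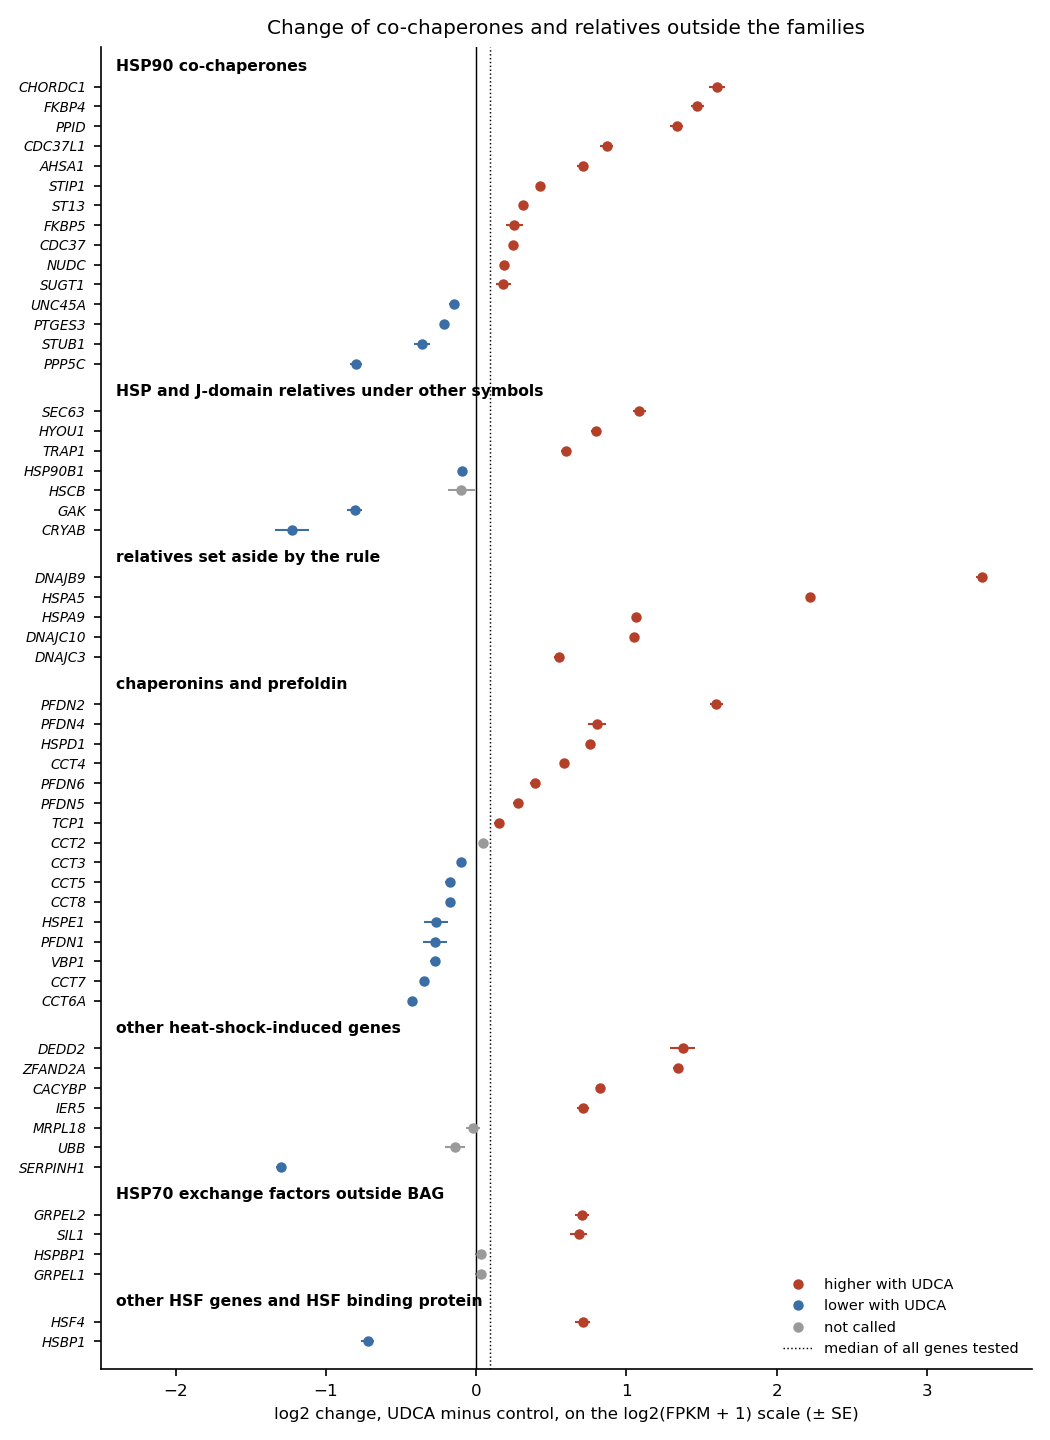
Log2 change of UDCA over control, from log2(FPKM + 1) values, with its SE for the 56 tested genes of the 7 lists; colour gives the call, and the dotted line is the median of all tested genes. DNAJB9 and HSPA5 lie furthest right, and SERPINH1 and CRYAB furthest left, CRYAB having reached 1 FPKM in control libraries only; HSP90B1 lies left of 0 but was higher, not called, under quantile normalization.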

How the data were processed

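Polyadenylated RNA was made into Illumina TruSeq libraries, per the labels' protocols. HISAT2, Bowtie2 2.0.6 and GRCh38 are named in the submitters' processing notes; how reads were counted (program, strand, multiply mapped reads, overlapping genes) is not given in sources used here. Deposited values carry no named unit and were read as FPKM: multiplied by merged exon lengths of GENCODE 29, 100% are whole reads (or read pairs) within 0.01, so 3 reads in 1 kb stand for 0.169 to 0.188 FPKM (counting error only). The deposited FPKM are scaled by library total only, so abundant genes that change shift all others.

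Genes that reached 1 FPKM in 3 or more of 6 libraries were tested by limma-trend (limma 3.58.1, R 4.3.3) on log2(FPKM + 1), 2-sided, Benjamini-Hochberg over all 14380; the log2 scale understates changes of low genes. The test was also run on simulated reads in which few genes changed, unlike here, so that run does not check the calls in these data. Groups follow the labels, and folds are ratios of mean FPKM. Tables and plots used Python 3.11.15, pandas 2.3.3 and matplotlib 3.10.9. Replicates differed by a chi-square per degree of freedom of 1.67 to 2.73 in UDCA and 1.68 to 1.94 in control libraries, and each was counted as 1 sample.

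The members and lists were chosen with earlier results of these data known. Members named are 15 chosen for their role, those called with a change of at least 2-fold and at least 2 FPKM in the higher group, and those that a count of 5 or fewer covers; from the other lists, the 2 largest called changes, and others chosen after their values were seen. Some genes of those lists are not reported here. Shared sequence is the percent of 50-base words of a gene's transcripts found in other genes. Same-numbered libraries did not deviate together (correlations -0.0012 to 0.014). No pairing by number was thus seen, but spread that may be technical could hide one. Alternatives were 3 scalings, a pseudocount of 0.1, no filter, the replicate block, voom on the recovered reads and leaving out each library.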

Additional observations from a re-analysis of the deposited data

How the results depend on the processing

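Across the 13 alternatives 31 to 34 members were called higher and 18 to 23 lower, against 32 and 18. With a replicate block the counts were 31 and 19 for members, 33 and 17 for the companion genes, and 6427 and 5076 for all tested genes. Scaling by the median ratio of genes gave 5826 higher and 5788 lower of all tested genes, and took the median change of the tested members to 0.25 and of all tested genes to 0.0023. Of the members HSP90AB1 alone turned with a call: its log2 change was 0.31 under quantile normalization, and the cause was not tested. Members not called that changed sign were HSPB1 (-0.0485), DNAJB12 (-0.0062) and DNAJB14 (-0.0358) under median-ratio scaling. Leaving out each library in turn gave log2 changes from -0.0688 to 0.0195 for BAG1, from -0.0048 to 0.16 for DNAJB14 and from -0.0449 to 0.0169 for MRPL18. Companion genes called higher and lower numbered 34 and 15 under quantile normalization and 31 and 20 under median-ratio scaling, against 33 and 17. HSP90B1 changed sign under quantile normalization (0.0639). CCT2 (-0.0669 and -0.0023), HSPBP1 (-0.0748 and -0.0121) and GRPEL1 (-0.0711 and -0.0120) did so under median-ratio scaling and totals without mitochondrial genes, and HSPBP1 (-0.0040) and GRPEL1 (-0.0539) also under quantile normalization.

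The call of DNAJC24 was lost under median-ratio scaling, with the replicate block, and without control replicate 1, control replicate 2, UDCA replicate 1 or UDCA replicate 2. BAG3 was called lower under median-ratio scaling, totals without mitochondrial genes, the replicate block, voom and without UDCA replicate 3. UDCA replicate 3 was the library furthest from the others of its group; without it 33 members were higher and 21 lower. Without the filter 33 members were higher and 23 lower; the 12 members it adds had 0 to 32 reads in all UDCA libraries and 0 to 88 in all control libraries, so depth limits what can be said of them.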
